A study of Mus musculus with 19 samples.

Results

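A set of 50 genes of B, T and NK lymphocytes was followed in whole inguinal fat of tumour-bearing and tumour-free mice. The members were matched by gene name to the deposited table and all 50 were found among its 24844 genes: 19 genes of B cells, 28 of T and NK cells, and 3 shared by all leukocytes. Where a name was repeated, the row of highest mean level was taken. The rule goes by gene name and uses a measured level only to settle such repeats, but the list was chosen with earlier results of these data known. Lymphocyte RNA was read as RPM, a gene's reads scaled to the same library total, from the 3' ends of transcripts.

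Each of the 19 libraries came from 1 wild-type C57BL/6JRj mouse held at thermoneutrality (29 °C) with free access to food. There were 4 groups of mice. FGF21 AAV mice (5 libraries) carried a CHX 207 fibrosarcoma in the right calf muscle and had received an adeno-associated virus encoding the hormone FGF21. Efruxifermin mice (5 libraries) carried the same tumour and had received 6 injections of efruxifermin, an engineered FGF21 protein, at 2 mg/kg. Tumour control mice (5 libraries) carried the tumour and had received control AAV. Healthy mice (4 libraries) had no tumour and had received control AAV and PBS. Treatments began 9 days before the tumour cells, and fat was taken 14 days after them. The labels do not say whether efruxifermin mice also received control AAV, and a difference between efruxifermin and the other groups cannot be told apart from one in the virus.

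B cells make antibodies and sense antigen through a surface immunoglobulin coupled to the CD79 chains. T cells recognise peptides through a T cell receptor coupled to the CD3 chains, with CD4 or CD8 as coreceptor, and NK cells kill without such a receptor by releasing granzymes and perforin. Most B and T cells at rest live in lymph nodes, where B cells form follicles and T cells the zone around them, and mouse inguinal fat encloses the inguinal lymph node. Resident lymphocytes of the fat itself are comparatively few.

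Depth ran from 2011067 to 3693864 reads per library, so 3 reads, the most that a count of 0 allows, are worth between 0.812 and 1.49 RPM. Adipocyte markers were present in all 19 libraries, with 12 of them summing to between 2035 and 49306 RPM. The sum of 12 skeletal muscle markers was highest in efruxifermin 3 (34329 RPM), tumour control 4 (103390.0 RPM) and healthy 1 (40251 RPM), and ran from 7.28 to 12493 RPM in the others. These 3 libraries also had the lowest B cell sums of their groups. Values without tumour control 4 or efruxifermin 3 stand beside the results that they moved most.

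The lymphocyte genes were present at high level in some libraries of every group and near 0 in others. The 19 B cell genes summed to 3247, 104, 925, 203 and 147 RPM in FGF21 AAV libraries 1 to 5 and to 298, 2935, 54.4, 777 and 7592 RPM in efruxifermin libraries 1 to 5. They summed to 10171, 12496, 5354, 88.3 and 3987 RPM in tumour control libraries 1 to 5 and to 99.9, 3025, 3672 and 302 RPM in healthy libraries 1 to 4. Of the 5 tumour control libraries 4 thus lay at 3987 RPM or above, while healthy fat was split evenly between high and low libraries and FGF21 AAV fat had a single library above 1000 RPM. In bulk RNA, fewer cells of a type and less RNA per cell cannot be told apart.

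The 28 T and NK genes followed the same libraries. They summed to 1414, 46.2, 109, 67.0 and 62.9 RPM in FGF21 AAV libraries and to 90.1, 504, 17.2, 114 and 1192 RPM in efruxifermin libraries. They summed to 3056, 3231, 1675, 15.4 and 2084 RPM in tumour control libraries and to 56.3, 3218, 1976 and 34.4 RPM in healthy libraries. The ranges of the 4 groups overlapped for both sums. Between 12 members (efruxifermin 3) and 50 (FGF21 AAV 1 and tumour control 2) had at least 1 read in a library. Only Ebf3, Bank1, Ighm, Cd37, Coro1a and Ptprc had reads in all 19 libraries, and the other 44 members were at 0 in at least 1.

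**Figure D1:**
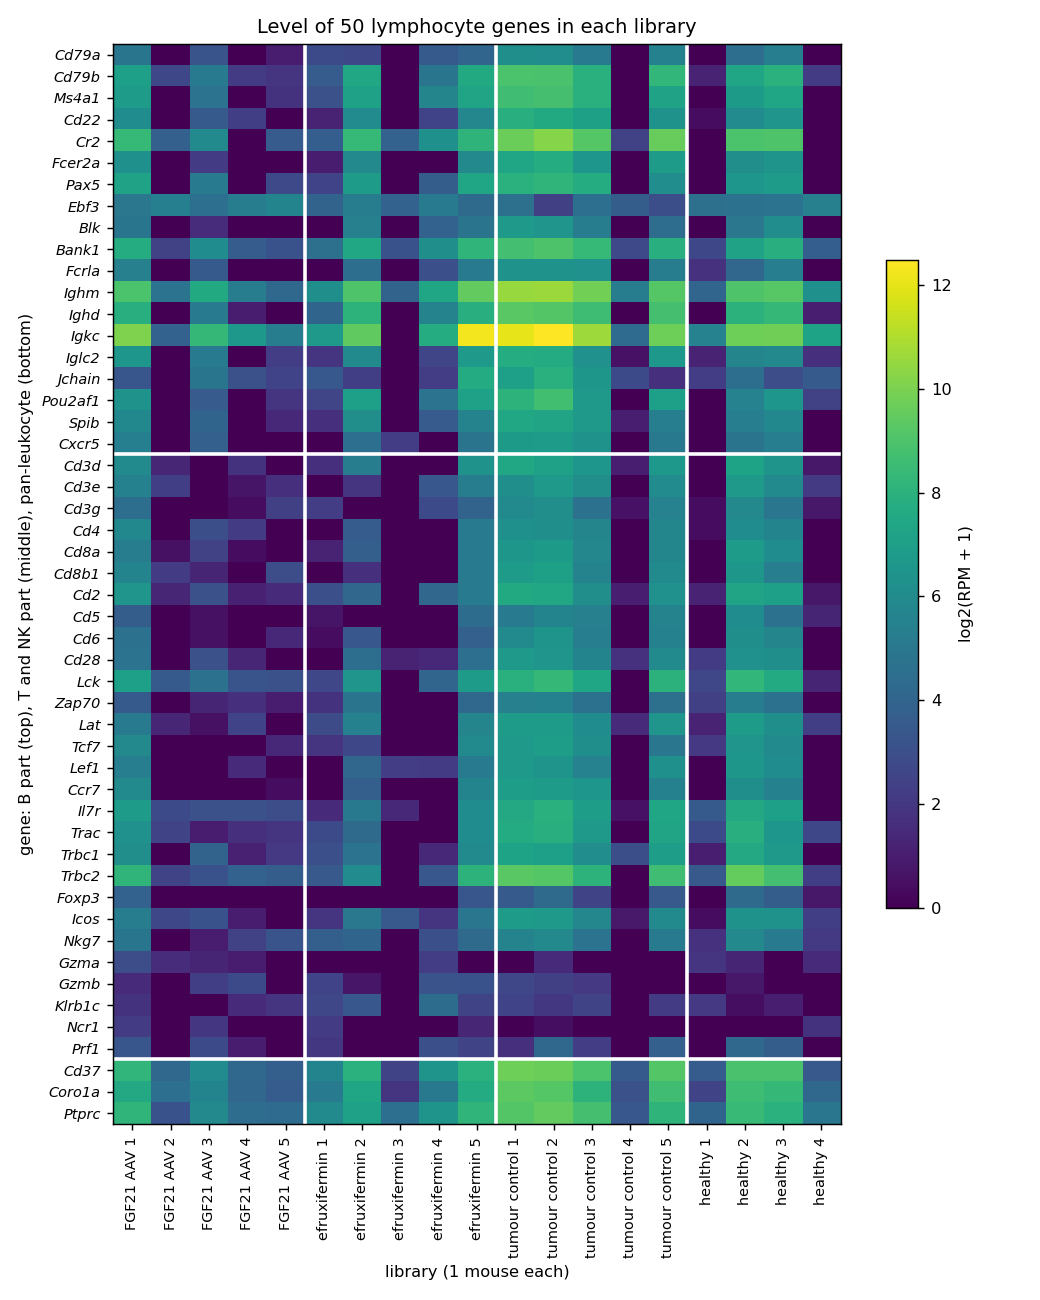
Level of each of the 50 genes (rows, B cell genes on top, T and NK genes in the middle, genes of all leukocytes at the bottom) in each of the 19 libraries (columns), as log2(RPM + 1) on the colour scale. Most rows are bright in the same columns, such as tumour control 1, 2, 3 and 5 and healthy 2 and 3, and dark in tumour control 4 and efruxifermin 3, while the row of Ebf3 does not follow that order.

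The B cell receptor chains and surface receptors are the genes that define the cell type. Cd79a, which encodes a signalling chain of the B cell receptor, stood at 28.0, 0, 8.41, 0 and 0.953 RPM in FGF21 AAV libraries 1 to 5 and 5.94, 5.62, 0, 10.8 and 16.1 RPM in efruxifermin libraries. It stood at 73.6, 69.2, 34.0, 0 and 44.5 RPM in tumour control libraries and 0, 21.9, 39.2 and 0 RPM in healthy libraries. Cd79a was at 0 in 6 of 19 libraries, spread over all 4 groups, and the groups overlapped. Ms4a1, which encodes the B cell surface protein CD20, stood at 113, 0, 25.7, 0 and 2.54 RPM in FGF21 AAV libraries 1 to 5 and 7.51, 142, 0, 50.6 and 155 RPM in efruxifermin libraries. Its levels were 404, 447, 245, 0 and 145 RPM in tumour control libraries and 0, 109.9, 158 and 0 RPM in healthy libraries. Ms4a1 too was at 0 in 6 libraries, and libraries of every group lay within the range of the tumour controls.

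The promoter of Cd79a is shown because it holds an E-box that recurs among the members. It spans 250 bases before to 50 bases after the start site on the plus strand of chr7:24897247-24897546 (RefSeq sequence, GRCm38.p6, a build that differs from the one behind the deposited table), and the capitals mark the E-box CAGGTG.
Cd79a promoter: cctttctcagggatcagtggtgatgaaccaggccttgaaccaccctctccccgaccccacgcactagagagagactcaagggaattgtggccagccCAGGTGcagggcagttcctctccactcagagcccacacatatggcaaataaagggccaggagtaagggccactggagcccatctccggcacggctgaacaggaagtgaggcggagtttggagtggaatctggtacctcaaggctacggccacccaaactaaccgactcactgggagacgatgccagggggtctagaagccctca
Such promoter sequences were at hand for 32 of the 50 members, and 18 of them held CAGGTG on either strand: 7 of 11 of the B cell genes, 10 of 18 of the T and NK genes and 1 of 3 of the leukocyte genes. Of all 27025 genes with such sequences, 22.6% held it in at least 1 promoter. The octamer ATGCAAAT was found for 0 of the 32 and for 1.97% of all these genes. CTTTGA was found for 5 of the 32 and for 18.2% of all, and GAGGAAGT for 2 of the 32 and for 3.69% of all. No motif contains another, both strands were searched, and they were picked after motif counts in these promoters had been looked at, so the shares are a description of the sequences only.

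Cr2, the complement receptor of B cells and follicular dendritic cells, stood at 323, 13.4, 62.4, 0 and 11.1 RPM in FGF21 AAV libraries 1 to 5 and 12.2, 331, 14.0, 75.0 and 280.3 RPM in efruxifermin libraries. It stood at 806, 1196, 574, 4.60 and 760.1 RPM in tumour control libraries and 0, 486, 519 and 0 RPM in healthy libraries. Its 4 highest values were all in tumour controls, and tumour control 4, at 4.60 RPM, lay below 4 of 5 FGF21 AAV libraries. The other surface and signalling members were Cd79b, Cd22, Fcer2a (the low affinity IgE receptor), Blk, Bank1 and Fcrla. Each had its highest value in tumour control 1 or 2, from 84.0 RPM for Fcrla to 501 RPM for Bank1, and in none of them did the groups separate.

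The antibody genes differed between libraries that all had B cell genes. Ighm, the heavy chain of IgM, stood at 486, 25.9, 190.1, 38.0 and 17.8 RPM in FGF21 AAV libraries 1 to 5 and 74.1, 531, 14.7, 167 and 717 RPM in efruxifermin libraries. It stood at 1500.0, 1536, 912, 38.7 and 577 RPM in tumour control libraries and 15.8, 523, 599 and 74.8 RPM in healthy libraries. Ighm was read in every library, and the tumour controls other than tumour control 4 held 4 of the 6 highest values. Igkc, the kappa light chain constant gene, stood at 1062, 14.4, 318, 101 and 36.2 RPM in FGF21 AAV libraries 1 to 5 and 107, 688, 0, 207 and 4840.4 RPM in efruxifermin libraries. It stood at 4105, 5706, 1585, 19.8 and 846 RPM in tumour control libraries and 45.4, 835, 877 and 151 RPM in healthy libraries. Igkc was at 0 in efruxifermin 3 and reached its second highest value in efruxifermin 5, so that 1 library made up most of the efruxifermin mean of 1168 ± 2069 RPM (SD, n = 5), which compares with 2452 ± 2375 RPM in tumour controls (SD, n = 5).

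The ratio of Igkc to Ighm reads within a library does not depend on scaling. It was 6.75 (95% interval 6.44 to 7.09) in efruxifermin 5, the highest of the libraries with at least 10 reads of each gene, and 1.30 (95% interval 1.21 to 1.38) in efruxifermin 2. It was 2.74 (95% interval 2.63 to 2.85) and 3.72 (95% interval 3.59 to 3.85) in tumour control 1 and 2 and 1.47 (95% interval 1.37 to 1.57) in tumour control 5, against 1.59 and 1.47 in healthy 2 and 3. Efruxifermin 5 and healthy 3, with 155 and 158 RPM of Ms4a1, thus differed in kappa light chain per IgM heavy chain beyond counting error. These intervals and all others here are exact binomial ones and cover counting error only.

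Jchain, which joins secreted antibody chains and marks antibody-secreting cells, stood at 8.98, 0, 27.7, 7.48 and 4.76 RPM in FGF21 AAV libraries 1 to 5 and 9.70, 3.97, 0, 3.80 and 201 RPM in efruxifermin libraries. It stood at 133, 239.8, 97.2, 5.96 and 2.34 RPM in tumour control libraries and 3.87, 21.5, 6.83 and 10.6 RPM in healthy libraries. Efruxifermin 5 had 201 RPM of Jchain beside 155 RPM of Ms4a1, and tumour control 5 had 2.34 RPM of Jchain beside 145 RPM of Ms4a1. Ighd, the heavy chain of the IgD that resting B cells carry beside IgM, ran from 0 in 5 libraries to 624 RPM in tumour control 1. Its ratio to Ighm was 0.325 (95% interval 0.296 to 0.356) in efruxifermin 5 and 0.371 (95% interval 0.349 to 0.394) in tumour control 2, against 0.494 and 0.527 in healthy 2 and 3, and was highest in tumour control 5 at 0.766. Iglc2, a lambda light chain constant gene, ran from 0 to 208 RPM. Its value is uncertain, since near-identical lambda copies can share its reads.

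**Figure D2:**
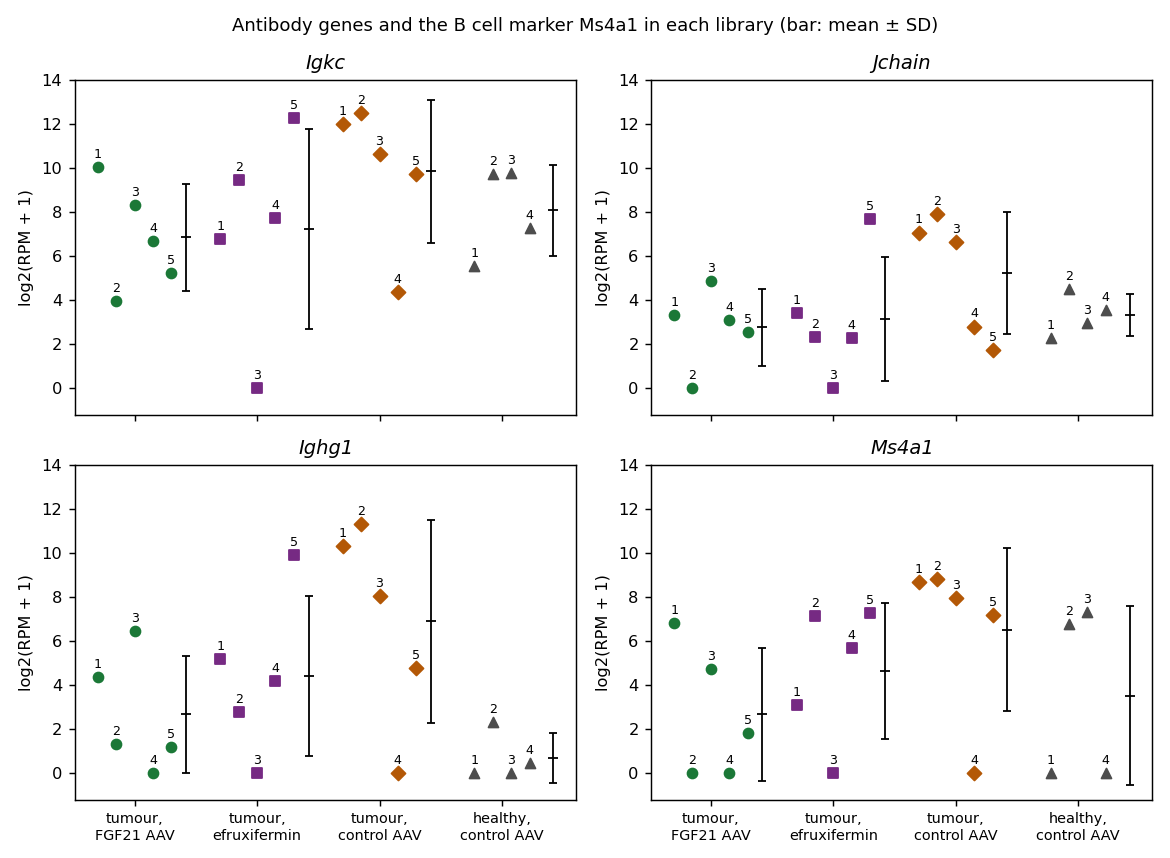
Level of Igkc, Jchain, Ighg1 (the IgG1 heavy chain) and the B cell marker Ms4a1 as log2(RPM + 1) in each library, numbered within its group, with the mean ± SD of the group as a bar (n = 5 in each tumour group, n = 4 in healthy mice). Efruxifermin 5 and tumour control 1 and 2 stand high in all 4 panels, while tumour control 5 and healthy 2 and 3 are high in Ms4a1 but low in Jchain or Ighg1.

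The heavy chains of class-switched antibody, which activated B cells make in place of IgM, were read beside these. Ighg1, Ighg2b, Ighg2c and Ighg3 together summed to 42.4, 2.49, 114, 1.87 and 3.49 RPM in FGF21 AAV libraries and to 60.7, 10.3, 0, 19.6 and 2166 RPM in efruxifermin libraries. They summed to 1567, 2820.0, 392, 0 and 56.2 RPM in tumour control libraries and to 5.98, 68.7, 7.55 and 14.7 RPM in healthy libraries. FGF21 AAV 3, efruxifermin 5 and tumour control 1, 2 and 3 exceeded every healthy library, and the groups overlapped.

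Among the transcription and follicle factors, Pax5 (the factor that holds B cell identity), Pou2af1 (the B cell octamer coactivator) and Spib (an ETS factor) were at 0 in 6, 5 and 5 libraries. Cxcr5, the receptor that guides B cells into follicles, was at 0 in 8 libraries and reached 120 RPM in tumour control 2. Each of these had its highest value in tumour control 1 or 2.

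Ebf3 did not follow the other B cell members. It is a relative of Ebf1, the early B cell factor, and is known also from stromal and neural cells. Ebf3 stood at 29.8, 40.8, 22.8, 36.5 and 49.2 RPM in FGF21 AAV libraries 1 to 5 and 14.7, 38.0, 14.0, 34.2 and 19.1 RPM in efruxifermin libraries. It stood at 23.3, 4.16, 22.5, 11.9 and 7.02 RPM in tumour control libraries and 23.6, 24.5, 25.9 and 42.1 RPM in healthy libraries. All 5 tumour control values lay below all 4 healthy values, but narrowly. The nearest were 23.26 RPM in tumour control 1 and 23.56 RPM in healthy 1, where 1 read is worth 0.475 and 0.352 RPM. Tumour control 4, where 11 of the 19 B cell members were at 0 and only Ighm and Igkc stood higher, had 11.9 RPM. Over the 19 libraries its log2(RPM + 1) had a Pearson r of -0.33 with the mean of the other B cell members, as a description. The B cell sums, medians and counts include Ebf3 unless it is said to be left out.

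The T cell receptor genes and the CD3 chains came next. Cd3e, a signalling chain of the T cell receptor complex, stood at 44.2, 3.98, 0, 0.623 and 2.22 RPM in FGF21 AAV libraries 1 to 5 and 0, 2.65, 0, 9.49 and 38.5 RPM in efruxifermin libraries. It stood at 74.1, 107, 70.9, 0 and 63.2 RPM in tumour control libraries and 0, 107, 61.9 and 3.30 RPM in healthy libraries. Cd3e was at 0 in FGF21 AAV 3 and at 2.65 RPM in efruxifermin 2, which are libraries with clear B cell levels. Trac, the constant gene of the receptor alpha chain, stood at 77.6, 4.97, 0.99, 2.18 and 2.86 RPM in FGF21 AAV libraries 1 to 5 and 5.94, 18.9, 0, 0 and 66.1 RPM in efruxifermin libraries. It stood at 203, 224, 107, 0 and 158 RPM in tumour control libraries and 5.98, 232, 91.7 and 5.50 RPM in healthy libraries. The highest Trac value of all was in healthy 2, and the groups overlapped.

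The promoters of Cd3d, Cd3e and Cd3g are shown because these 3 chains are read together and each promoter holds the E-box. In the same build, Cd3d lies on the plus strand (chr9:44981536-44981835), Cd3g on the minus strand (chr9:44980382-44980681) and Cd3e on the minus strand (chr9:45009562-45009861). The start sites of Cd3g and Cd3d are 1355 bases apart and point away from each other. Capitals mark the E-box, here read as CACCTG, the other strand of CAGGTG.
Cd3d promoter: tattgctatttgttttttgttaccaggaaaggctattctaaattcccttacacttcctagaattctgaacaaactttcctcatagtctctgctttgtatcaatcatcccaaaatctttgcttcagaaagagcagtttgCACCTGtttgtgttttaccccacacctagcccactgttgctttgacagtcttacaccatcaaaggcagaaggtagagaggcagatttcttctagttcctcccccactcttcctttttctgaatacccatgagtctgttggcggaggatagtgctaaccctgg
Cd3e promoter: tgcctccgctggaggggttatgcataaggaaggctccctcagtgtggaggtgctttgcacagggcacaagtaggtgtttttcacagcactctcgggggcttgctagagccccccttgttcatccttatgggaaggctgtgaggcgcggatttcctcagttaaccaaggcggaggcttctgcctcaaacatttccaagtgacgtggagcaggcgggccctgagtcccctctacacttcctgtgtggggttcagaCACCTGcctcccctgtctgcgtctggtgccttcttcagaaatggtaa
Cd3g promoter: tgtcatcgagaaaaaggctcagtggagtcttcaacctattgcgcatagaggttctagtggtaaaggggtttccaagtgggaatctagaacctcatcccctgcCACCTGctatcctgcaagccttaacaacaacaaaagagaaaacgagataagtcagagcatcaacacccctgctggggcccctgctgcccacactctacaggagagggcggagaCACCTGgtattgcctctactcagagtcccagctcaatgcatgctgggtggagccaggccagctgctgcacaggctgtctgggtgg
Cd3d ran from 0 to 176 RPM and Cd3g from 0 to 70.4 RPM over the 19 libraries, and their log2 levels had a Pearson r of 0.96 and 0.90 with the mean of the other T and NK members, beside 0.92 for Cd3e. Trbc1 and Trbc2, the receptor beta chain constant genes, are close copies whose reads can be assigned to either, so their split is uncertain. Trbc2 ran from 0 to 739 RPM and Trbc1 from 0 to 187 RPM, both highest in healthy 2.

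The coreceptors mark the helper and the cytotoxic branch. Cd4 stood at 55.7, 0, 6.93, 3.43 and 0 RPM in FGF21 AAV libraries 1 to 5 and 0, 11.6, 0, 0 and 34.8 RPM in efruxifermin libraries. It stood at 75.0, 73.8, 50.9, 0 and 51.5 RPM in tumour control libraries and 0.352, 65.3, 48.6 and 0 RPM in healthy libraries. Cd8a stood at 36.7, 0.497, 4.46, 0.312 and 0 RPM in FGF21 AAV libraries 1 to 5 and 1.25, 12.6, 0, 0 and 32.9 RPM in efruxifermin libraries. Its levels were 95.9, 112, 54.4, 0 and 52.6 RPM in tumour control libraries and 0, 119.5, 65.8 and 0 RPM in healthy libraries. Cd8a and Cd4 were high in the same libraries, and the groups overlapped in both. With at least 10 reads of each gene, the ratio of Cd8a to Cd4 reads was 0.658 (95% interval 0.507 to 0.85) in FGF21 AAV 1, and 1.09 and 0.946 in efruxifermin 2 and 5. It was 1.28, 1.52, 1.07 and 1.02 in tumour control 1, 2, 3 and 5, against 1.83 (95% interval 1.52 to 2.21) and 1.36 (95% interval 1.08 to 1.71) in healthy 2 and 3. FGF21 AAV 1 is the only library whose interval lies wholly below 1, and as 1 mouse it gives no test of the treatment.

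Ccr7, the receptor that brings naive T cells and dendritic cells into lymph nodes, stood at 60.7, 0, 0, 0 and 0.318 RPM in FGF21 AAV libraries 1 to 5 and 0, 12.9, 0, 0 and 49.3 RPM in efruxifermin libraries. It stood at 121, 112, 94.4, 0 and 43.3 RPM in tumour control libraries and 0, 74.2, 43.5 and 0 RPM in healthy libraries. Ccr7 was at 0 in 9 libraries, more than any other T cell member outside the cytotoxic genes except Foxp3 at 10, and in FGF21 AAV fat it was present in library 1 and at or under 0.318 RPM in the rest. Among the libraries with enough reads, the ratio of Ccr7 to Cd3e was 1.37 in FGF21 AAV 1 and 1.28 in efruxifermin 5. It was 1.63, 1.05, 1.33 and 0.685 in tumour control 1, 2, 3 and 5, against 0.694 (95% interval 0.577 to 0.835) and 0.703 (95% interval 0.553 to 0.893) in healthy 2 and 3. Of these 4 tumour controls 3 thus lay above both healthy libraries, and tumour control 5 did not. The interval of tumour control 2 (95% interval 0.892 to 1.24) met that of healthy 3, and only 2 healthy libraries had enough reads.

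The remaining T cell members followed the same libraries. They were the coreceptor chain Cd8b1, the adhesion and tuning receptors Cd2, Cd5 and Cd6, the costimulatory receptors Cd28 and Icos, and the receptor kinases and adaptor Lck, Zap70 and Lat. With them went Tcf7 and Lef1, factors of naive and memory T cells, Il7r, the survival receptor of resting T cells, and Foxp3, the factor of regulatory T cells. Their highest values ran from 18.9 RPM for Foxp3 to 317 RPM for Lck. Of these 13 members, Foxp3 and Cd5 were at 0 in the most libraries, 10 and 8.

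Of the cytotoxic and NK members, Gzma, Gzmb, Klrb1c, Ncr1 and Prf1 stayed at 20.6 RPM or below in every library, and Nkg7 did not. Nkg7, a granule protein of cytotoxic T and NK cells, stood at 28.0, 0, 0.99, 4.36 and 8.58 RPM in FGF21 AAV libraries 1 to 5 and 12.8, 15.2, 0, 7.28 and 18.7 RPM in efruxifermin libraries. It stood at 47.0, 58.3, 26.3, 0 and 33.5 RPM in tumour control libraries and 2.46, 57.5, 33.1 and 3.30 RPM in healthy libraries. Nkg7 kept to the T cell pattern, being highest in tumour control 2 and healthy 2. Gzma, which encodes granzyme A, stood at 6.83, 1.99, 1.49, 0.935 and 0 RPM in FGF21 AAV libraries 1 to 5 and 0, 0, 0, 3.80 and 0 RPM in efruxifermin libraries. It stood at 0, 1.89, 0, 0 and 0 RPM in tumour control libraries and 2.81, 1.49, 0 and 1.83 RPM in healthy libraries. Gzma was at 0 in 10 libraries, including 4 of 5 tumour controls, and no library exceeded 6.83 RPM.

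Gzmb, which encodes granzyme B, stood at 1.80, 0, 3.96, 5.92 and 0 RPM in FGF21 AAV libraries 1 to 5 and 4.69, 0.662, 0, 8.23 and 7.85 RPM in efruxifermin libraries. It stood at 5.22, 4.16, 3.16, 0 and 0 RPM in tumour control libraries and 0, 0.742, 0 and 0 RPM in healthy libraries. Gzmb was read in 3 of 5 FGF21 AAV, 4 of 5 efruxifermin and 3 of 5 tumour control libraries, and in 1 of 4 healthy ones. Klrb1c, the NK receptor NK1.1, stood at 2.52, 0, 0, 1.87 and 2.86 RPM in FGF21 AAV libraries 1 to 5 and 5.32, 9.60, 0, 20.6 and 4.86 RPM in efruxifermin libraries. It stood at 4.75, 3.03, 4.91, 0 and 3.51 RPM in tumour control libraries and 3.16, 0.371, 1.08 and 0 RPM in healthy libraries. Its highest value was in efruxifermin 4, and no library of another group passed 4.91 RPM. That library had 0 RPM of Cd4 and Cd8a but 9.49 RPM of Cd3e, 16.1 RPM of Cd2 and 15.8 RPM of Lck. Ncr1, the NK receptor NKp46, was at 0 in 13 libraries and never passed 3.59 RPM, and Prf1, perforin, never passed 17.4 RPM. At these depths such values rest on few reads, and a 0 cannot be told from a low level.

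The genes of all leukocytes joined both branches. Ptprc, which encodes CD45, stood at 284, 7.96, 57.4, 20.9 and 19.4 RPM in FGF21 AAV libraries 1 to 5 and 61.9, 138, 22.5, 88.0 and 286 RPM in efruxifermin libraries. It stood at 554, 710.1, 437, 9.47 and 281 RPM in tumour control libraries and 15.5, 343, 253 and 28.6 RPM in healthy libraries. Ptprc never fell to 0. With at least 10 reads on each side, its reads in efruxifermin 1 were 8.25 (95% interval 5.39 to 13.2) times those of Cd3e and Ms4a1 together. They were 1.16 to 1.38 times in tumour control 1, 2, 3 and 5. Libraries with fewer reads got no ratio. Ptprc had 16, 67 and 78 reads against 8, 2 and 9 in FGF21 AAV 2, FGF21 AAV 4 and healthy 4. It had 64, 44 and 35 reads against 0 in efruxifermin 3, healthy 1 and tumour control 4. Efruxifermin 1 also had the highest sum of the 12 macrophage markers, 2506 RPM, against 321 to 1386 RPM in tumour controls. Libraries without a ratio had macrophage sums of 294 to 800 RPM, and a link between the ratio and macrophage reads was not tested. Coro1a, an actin regulator of leukocytes, and Cd37, a tetraspanin, were read in every library, with Cd37 between 4.91 and 836 RPM.

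FGF21 AAV fat was compared with tumour control fat first, since the study asks what FGF21 does in cancer cachexia, the wasting that a tumour brings. Most lymphocyte genes had lower means under FGF21 AAV, but no member passed the test with all libraries in it. Differences were tested by limma on log2(RPM + 1) over 17013 genes, all 50 members among them, with Benjamini-Hochberg adjustment, and a log2 fold change is a difference on this scale, which understates the change of low genes. By limma 0 of 50 members were called at an adjusted p under 0.05, where 0.564% of all genes tested were. At an unadjusted p under 0.05 there were 33 of 50 (16% of all genes), of which 32 were lower (7.14% of all genes) and Ebf3 higher (8.82%). By edgeR's quasi-likelihood test 0 members were called (0.047% of all genes), and by DESeq2 1 of the 38 members with an adjusted p, Ebf3, which was higher (6.89% of all genes in either direction and 4.28% higher).

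The median log2 fold change against tumour controls was -3.08 over the B cell members and -2.91 over the T and NK members, beside -0.048 over all genes. Ebf3 had the smallest p, at 35.8 ± 10.1 RPM under FGF21 AAV and 13.8 ± 8.76 RPM in tumour controls (SD, n = 5 each), a log2 fold change of 1.51 ± 0.44 (adjusted p = 0.105) by limma and an adjusted p of 0.047 by DESeq2. Cd5 stood at 11.9, 0, 0.495, 0 and 0 RPM in FGF21 AAV libraries, against 36.1, 49.2, 42.1, 0 and 46.8 RPM in tumour control libraries. Its log2 fold change by limma was -3.52 ± 1.21 (adjusted p = 0.165). For Lat the values were 35.2, 1.49, 0.495, 4.67 and 0 RPM under FGF21 AAV, against 116, 113, 67.0, 1.90 and 89.3 RPM in tumour controls, a log2 fold change of -3.65 ± 1.30 (adjusted p = 0.174) by limma. The fold changes of Cd28 and Ighm were -3.50 ± 1.24 (adjusted p = 0.171) and -2.94 ± 1.13 (adjusted p = 0.208) by limma. In each of these 5 genes the groups overlapped, as they did in all 50 members, where 3.33% of all genes had groups that did not.

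Tumour control 4 decided whether these differences passed. Without it 30 of 50 members were called by limma, all lower under FGF21 AAV: 12 B cell members, 15 T and NK members and the 3 genes of all leukocytes. Of the 16899 genes then tested 6.02% were called, and 3.5% were called lower. Tumour control 4 stood apart in the lymphocyte genes themselves, so the calls without it are no independent test, and leaving out any other single library of these groups gave 0 members called. The B cell median was then -4.45 and the T and NK median -4.13. Ptprc had the smallest adjusted p of members without that library, with a log2 fold change of -3.68 ± 0.87 (adjusted p = 0.027 by limma), and Cd5 followed at -4.61 ± 1.11 (adjusted p = 0.029 by limma). Without efruxifermin 3 as well, which belongs to neither group and enters through the shared spread and the genes tested (16812), 40 members were called by limma (10.5% of all genes), 39 lower (6.27%) and Ebf3 higher. That tumour control 4 lacked lymphocyte reads and was rich in muscle transcripts is given here as measured, and the part of muscle RNA in these calls was not tested.

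**Figure D3:**
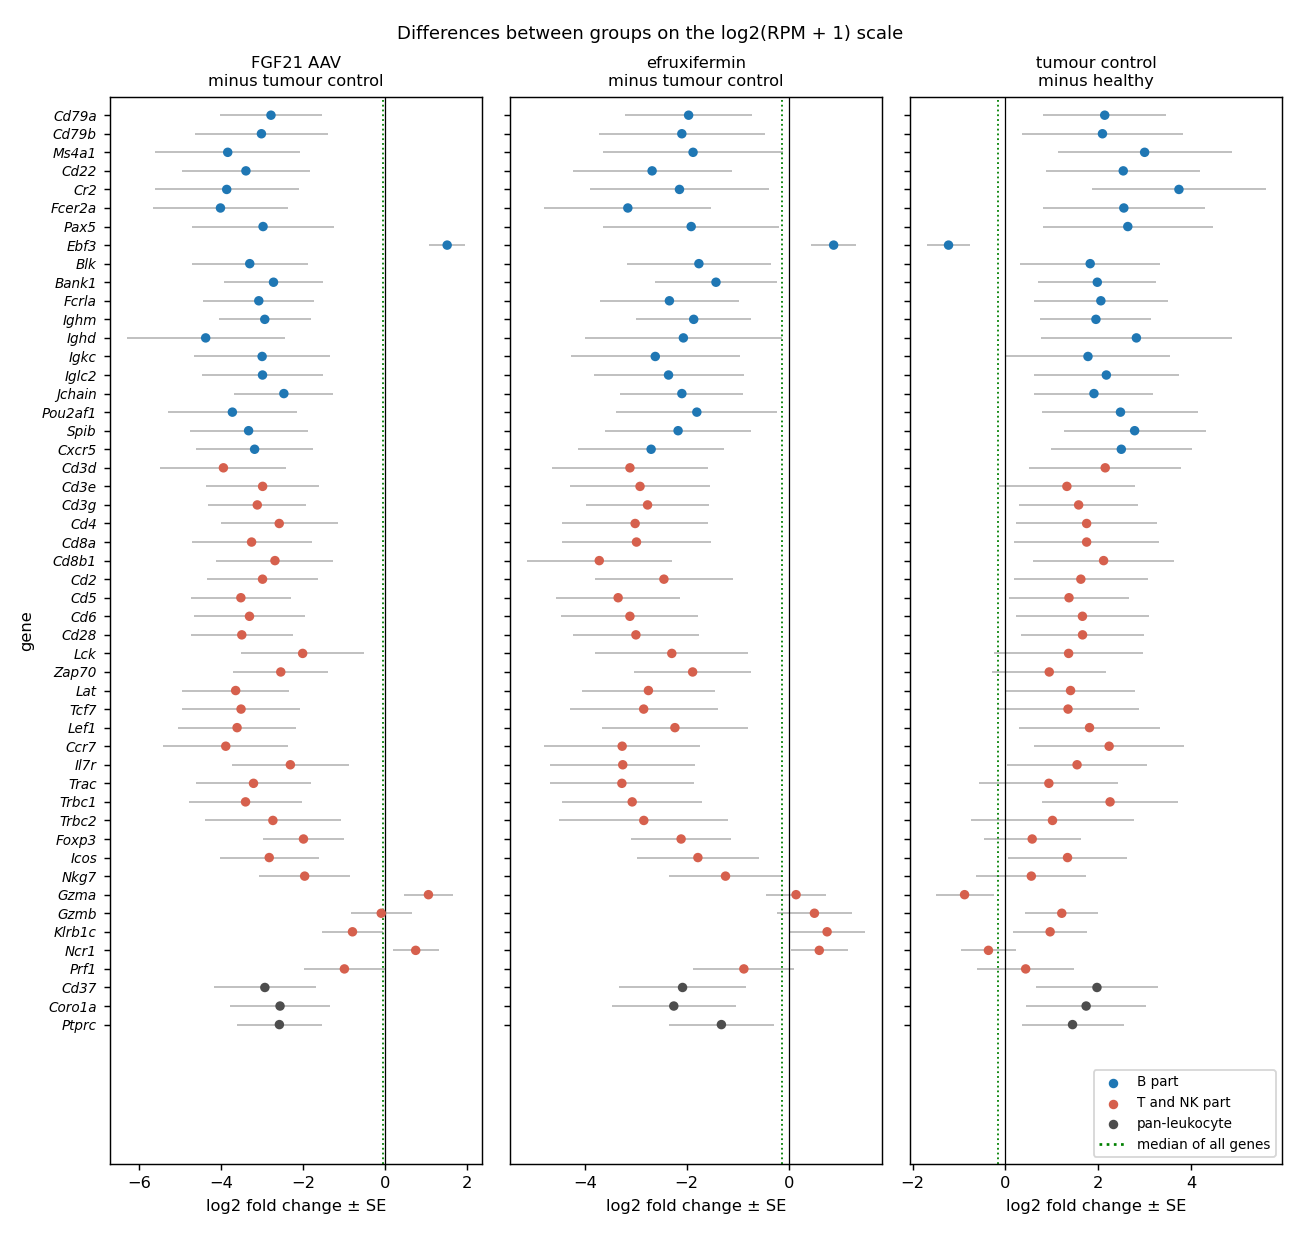
Log2 fold change ± SE by limma on log2(RPM + 1) for each of the 50 genes, in FGF21 AAV minus tumour control (left), efruxifermin minus tumour control (middle) and tumour control minus healthy (right), with the median of all genes as a dotted line. Nearly all genes lie left of 0 in the first 2 panels and right of it in the third, Ebf3, Gzma and Ncr1 lie on the other side in each, and none passed an adjusted p under 0.05.

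Efruxifermin fat had lower means than the same tumour controls in most members, and none passed the test. By limma 0 of 50 members were called (0.764% of all genes), by edgeR 0 (0.27%) and by DESeq2 0 of 49 (2.57%). At an unadjusted p under 0.05 there were 13 members (13.9% of all genes), all lower (7.35%) and all T cell members, among them Cd3e, Cd4, Ccr7 and Foxp3, while 0 of 19 B cell members reached it. The median log2 fold change was -2.81 over the T and NK members and -2.10 over the B cell members, beside -0.137 over all genes, and the difference between the branches was not tested. These medians were -3.86 and -3.51 without tumour control 4, -2.22 and -1.06 without efruxifermin 3, and -3.33 and -2.45 without both.

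Cd8b1 stood at 0, 2.32, 0, 0 and 34.8 RPM in efruxifermin libraries, against 118, 135, 46.7, 0 and 59.7 RPM in tumour control libraries. Its log2 fold change was -3.72 ± 1.43 (adjusted p = 0.244) by limma, and the highest efruxifermin value, in library 5, lay below 4 of 5 tumour controls and above tumour control 4. The other members of smallest p were Cd5 at -3.35 ± 1.21 (adjusted p = 0.212), Cd28 at -3.00 ± 1.24 (adjusted p = 0.276), Trac at -3.27 ± 1.41 (adjusted p = 0.299) and Cd6 at -3.12 ± 1.34 (adjusted p = 0.299), all by limma. Without tumour control 4, limma called 4 members, all lower (Cd5, Cd8b1, Il7r and Trac), and 3.77% of all genes in either direction and 2.01% lower. Without efruxifermin 3 as well it called Cd5, Cd8b1 and Trac lower, and 4.6% of all genes in either direction and 1.53% lower. In 0 of 50 members were the groups apart with all libraries in, where 1.65% of all genes were.

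Tumour control fat was set against healthy fat to see what the tumour itself went with. The medians were higher in tumour controls, 2.17 log2 units over the B cell members and 1.36 over the T and NK members, beside -0.157 over all genes, while summed B cell RPM within healthy fat ran from 99.9 to 3672. By limma 0 of 50 members were called (0.047% of all genes), by edgeR 0 (0.00588%) and by DESeq2 0 of 47 (0.293%). At an unadjusted p under 0.05 there was 1 (8.32% of all genes), and it was Ebf3, lower in tumour controls (7.49%). Ebf3 averaged 13.8 ± 8.76 RPM in tumour controls (SD, n = 5) and 29.0 ± 8.80 RPM in healthy fat (SD, n = 4), a log2 fold change of -1.22 ± 0.47 (adjusted p = 0.404) by limma. It was the 1 member of 50 whose groups did not overlap, where 3.87% of all genes had groups that did not and 3.66% were wholly lower in tumour controls. The gap was narrow, from 23.26 RPM in tumour control 1 to 23.56 RPM in healthy 1, where 1 read is worth 0.475 and 0.352 RPM.

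Cr2 averaged 668 ± 434 RPM in tumour controls and 251 ± 290.4 RPM in healthy fat, a log2 fold change of 3.73 ± 1.86 (adjusted p = 0.619) by limma. Spib, Cxcr5 and Ighm followed with 2.78 ± 1.53 (adjusted p = 0.679), 2.49 ± 1.52 (adjusted p = 0.733) and 1.95 ± 1.20 (adjusted p = 0.738) by limma. Without tumour control 4 the medians were 3.75 for B cell members and 2.57 for T and NK members. Limma still called 0 members. When each library of these groups was left out in turn, limma called between 1 and 64 of all genes. With so few genes called, a count of 0 members does not set the members apart from other genes. Healthy 1 and 4 were the libraries of healthy fat with few lymphocyte reads.

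The treated groups were also set against healthy fat and each other. Against healthy fat, the FGF21 AAV medians were -0.85 over the B cell members and -1.50 over the T and NK members (all genes -0.223). Leaving out 1 library at a time moved the B cell median between -1.74 (without FGF21 AAV 1) and 0.08 (without healthy 3). There were 0 members called by limma (0.0118% of all genes), edgeR (0.00588%) or DESeq2 (0.169%), and 0 at an unadjusted p under 0.05 by limma (5.34%). The smallest p were those of Cd5 at -2.15 ± 1.29 (adjusted p = 0.939), Lat at -2.25 ± 1.38 (adjusted p = 0.939), Trac at -2.28 ± 1.50 (adjusted p = 0.939), Gzmb at 1.12 ± 0.79 (adjusted p = 0.940) and Tcf7 at -2.17 ± 1.54 (adjusted p = 0.940), all by limma. Gzmb was thus the 1 of these 5 with a higher mean under FGF21 AAV.

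Efruxifermin fat had a B cell median of 0.06 against healthy fat and a T and NK median of -1.12 (all genes -0.304). Leaving out 1 library at a time moved the B cell median between -0.65 (without healthy 1) and 1.08 (without healthy 3), and without efruxifermin 3 the medians were 0.90 and -0.64. By limma, edgeR and DESeq2 0 members were called (0%, 0% and 0.111% of all genes), and 2 had an unadjusted p under 0.05 by limma, both higher (8.07% of all genes in either direction and 1.05% higher). These were Gzmb, at 4.29 ± 3.87 RPM with efruxifermin (SD, n = 5) and 0.185 ± 0.371 RPM in healthy fat (SD, n = 4, 2 reads in all), and the NK receptor gene Klrb1c. Their log2 fold changes were 1.72 ± 0.79 (adjusted p = 0.601) and 1.72 ± 0.80 (adjusted p = 0.601) by limma. Trac, Cd5 and Foxp3 followed at -2.34 ± 1.50 (adjusted p = 0.705), -1.98 ± 1.29 (adjusted p = 0.708) and -1.54 ± 1.04 (adjusted p = 0.715) by limma. The other cytotoxic and NK members did not share the direction of Gzmb and Klrb1c, except Ncr1 (means of 0.987 RPM with efruxifermin and 0.641 RPM in healthy fat). Means were lower with efruxifermin for Nkg7 (10.8 against 24.1 RPM), Prf1 (3.05 against 7.33 RPM) and Gzma (0.759 against 1.53 RPM).

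Efruxifermin and FGF21 AAV fat did not differ past the test in any member. The medians of efruxifermin against FGF21 AAV were 0.92 over the B cell members and 0.30 over the T and NK members (all genes -0.071), and 2.00 and 0.79 without efruxifermin 3. Limma, edgeR and DESeq2 called 0 members (0%, 0% and 0.112% of all genes), and 0 had an unadjusted p under 0.05 by limma (5.55%). Klrb1c came nearest, at 8.07 ± 7.77 RPM with efruxifermin and 1.45 ± 1.37 RPM under FGF21 AAV (SD, n = 5 each), a log2 fold change of 1.55 ± 0.75 (adjusted p = 0.879) by limma. Gzma, Ebf3, Ptprc and Pou2af1 followed at -0.91 ± 0.59 (adjusted p = 0.899), -0.63 ± 0.44 (adjusted p = 0.909), 1.26 ± 1.03 (adjusted p = 0.922) and 1.93 ± 1.58 (adjusted p = 0.922) by limma. In none of the 50 members were the groups apart in FGF21 AAV against healthy fat (2.23% of all genes), efruxifermin against healthy fat (2.33%) or efruxifermin against FGF21 AAV fat (0.699%). The comparisons share their control libraries, so their values are given side by side and not as repeats of each other.

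The balance of the branches was read within each library, where scaling drops out. T and NK genes made up 30.3, 30.7, 10.6, 24.9 and 29.9% of the reads of T, NK and B cell members in FGF21 AAV libraries and 23.2, 14.7, 24.0, 12.8 and 13.6% in efruxifermin libraries. They made up 23.1, 20.5, 23.8, 14.9 and 34.3% in tumour control libraries and 36.0, 51.5, 35.0 and 10.2% in healthy libraries. The lowest shares among libraries with over 300 lymphocyte reads were in FGF21 AAV 3 (95% interval 9.29 to 12.0%), efruxifermin 4 (11.5 to 14.0%) and healthy 4 (8.35 to 12.4%), and the highest in healthy 2 (50.8 to 52.3%). Group medians were 29.9%, 14.7%, 23.1% and 35.5% for FGF21 AAV, efruxifermin, tumour control and healthy fat, and the groups overlapped.

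**Figure D4:**
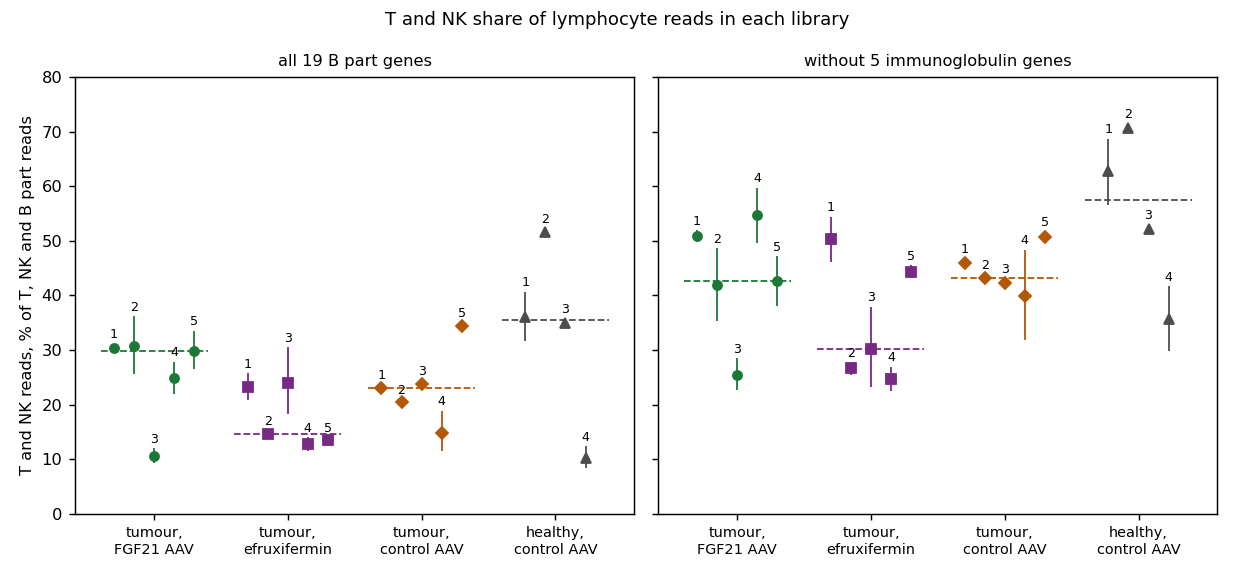
Share of T and NK reads among the reads of T, NK and B cell members in each library (numbered points, with exact 95% binomial intervals as vertical lines and the group median dashed), with all 19 B cell members (left) and without the 5 immunoglobulin genes (right). Efruxifermin has the lowest median in both panels (14.7% and 30.2%) and healthy fat the highest (35.5% and 57.4%), with overlapping points.

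Part of this balance lay in antibody genes, which supplied between 27.1% and 80.3% of the B cell RPM of a library. Without Ighm, Ighd, Igkc, Iglc2 and Jchain the medians were 42.6% for FGF21 AAV, 30.2% for efruxifermin, 43.2% for tumour control and 57.4% for healthy fat. What is left of the B cell sum then rests largely on Ebf3 in many libraries with few lymphocyte reads. Ebf3 made up 63.6%, 65.7% and 58.1% of it in FGF21 AAV 2, 4 and 5, 51.2% in tumour control 4, and 70.5% and 67.6% in healthy 1 and 4. It made up less in efruxifermin 3, the library with the lowest sum of members, at 35.4%, and in efruxifermin 1, at 16.5%. Without Ebf3 as well, a choice made after seeing the data, the shares were 51.4, 66.4, 26.9, 77.9 and 63.9% in FGF21 AAV libraries and 54.8, 27.2, 40.2, 26.6 and 44.7% in efruxifermin libraries. They were 46.1, 43.3, 42.4, 57.6 and 50.9% in tumour control libraries and 85.1, 71.02, 52.5 and 63.1% in healthy libraries. The medians were then 63.9%, 40.2%, 46.1% and 67.1% for FGF21 AAV, efruxifermin, tumour control and healthy fat, so the FGF21 AAV median lay above that of tumour controls and no longer beside it. With the antibody genes kept and Ebf3 alone left out they were 30.5%, 14.8%, 23.1% and 38.8%. Leaving out the antibody genes brought efruxifermin 5 to 44.4% from a share of 13.6% with the antibody genes in. Efruxifermin 2 stayed low at 26.6%. In that library Ms4a1 stood at 142 RPM, close to the 145 RPM of tumour control 5, while the T and NK sum was 504 RPM against 2084 RPM there. Single T cell genes varied, with Cd3e at 2.65 against 63.2 RPM, Lck at 90.7 against 257 RPM and Zap70 at 26.5 against 23.4 RPM.

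**Figure D5:**
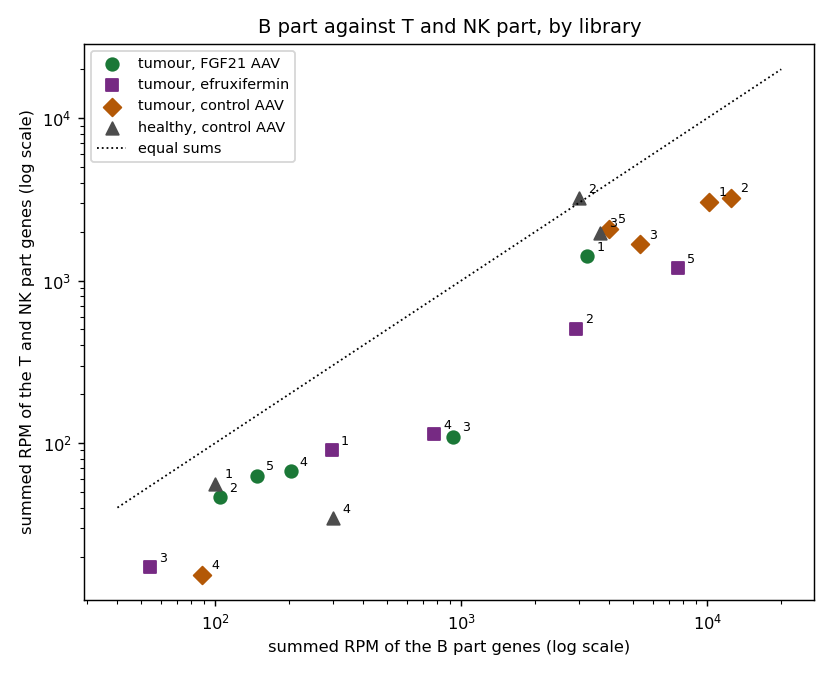
Summed RPM of the 28 T and NK genes (vertical, log scale) against summed RPM of the 19 B cell genes (horizontal, log scale), 1 point per library with its number in its group, and a dotted line where both sums are equal. Healthy 2 is the only point above the line, and efruxifermin 2, 4 and 5 and FGF21 AAV 3 lie farther below it than tumour control 1, 2, 3 and 5, as do tumour control 4 and healthy 4, which lies farthest below.

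Further genes of the same cells were read from separate lists. Of 24 further B cell genes, 0 were called by limma in any comparison. In FGF21 AAV against tumour control fat, 13 of 24 had a lower mean at an unadjusted p under 0.05 by limma (7.14% of all genes). The list's median log2 fold change there was -2.36. Its 3 members of highest mean level were Ebf1, Ly6d and Pou2f2. Ebf1, which fat progenitors also express, had 824, 643, 592, 619.7 and 570.5 RPM in FGF21 AAV libraries, against 780.4, 853, 843, 389.8 and 674 RPM in tumour control libraries, and so did not follow the B cell members. Pou2f2, an octamer factor, did, with 257, 20.9, 65.8, 28.4 and 20.0 RPM under FGF21 AAV, against 488, 709, 313, 9.20 and 262 RPM in tumour controls.

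Of 31 further T and NK genes that could be tested, 0 were called by limma. At an unadjusted p under 0.05 by limma, 13 were lower (7.14% of all genes) and 1 higher (8.82%) in FGF21 AAV against tumour control fat, with a median of -2.12. The 3 of highest mean level were Gata3, Satb1 and Klf2. Gata3, a factor of helper T cells that mammary epithelium also expresses, had its highest value, 1101 RPM, in FGF21 AAV 3, the library with 0 RPM of Cd3e and with 2587 RPM over 10 mammary epithelial markers. Satb1, a T cell chromatin organiser, followed the members instead, with 589.6, 684, 395, 119 and 524 RPM in tumour controls and 73.8, 601, 502 and 37.0 RPM in healthy fat.

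Of 17 germinal centre and plasma cell genes tested, 0 were called by limma. At an unadjusted p under 0.05 by limma, 8 were lower (7.14% of all genes) and 1 higher (8.82%) in FGF21 AAV against tumour control fat. In tumour control against healthy fat 4 were higher and 1 lower. Of all 17013 genes 1415 reached that p in either direction (8.32%). Of these, 1275 were lower in tumour controls (7.49% of all genes), so only a small part of all genes was higher. Xbp1, a factor of secretory cells, Ighg1 and Ighg2c had the highest mean levels. Ighg1 had 955 RPM in efruxifermin 5 and 1281, 2585 and 265 RPM in tumour control 1, 2 and 3, against 4.08 RPM at most in healthy fat. Ighg2c was highest in efruxifermin 5, at 787 RPM.

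Genes of lymph node stroma were high in many of the same libraries. Of 13 such genes tested 0 were called by limma. In FGF21 AAV against tumour control fat, 4 were lower (7.14% of all genes) and 1 higher (8.82%) at an unadjusted p under 0.05 by limma. Glycam1, a mucin of lymph node high endothelial venules, which mammary gland also makes, stood at 2075, 0, 12.9, 0 and 6.04 RPM in FGF21 AAV libraries 1 to 5 and 19.7, 318, 0, 19.3 and 1117 RPM in efruxifermin libraries. It stood at 2462, 2538, 1311, 0 and 1455 RPM in tumour control libraries and 0, 2788, 2318 and 0 RPM in healthy libraries. Glycam1 was above 1000 RPM in 8 libraries, which are those with the 8 highest sums of T and NK genes. Cd209b and Cxcl13, a marker of sinus macrophages and the chemokine of B cell follicles, had the next highest mean levels. In FGF21 AAV 3, where B cell genes summed to 925 RPM and T and NK genes to 109 RPM, Cxcl13 stood at 63.9 RPM and Glycam1 at 12.9 RPM, against 53.0 and 1455 RPM in tumour control 5. How far lymph node tissue in the sampled piece made these differences was not tested.

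Markers of fat and of other cells were read beside these. The median log2 fold change of FGF21 AAV against tumour control fat was 2.04 over the adipocyte markers, 1.32 over the mammary and 0.48 over the macrophage markers, and -1.42 over the dendritic, -1.97 over the cell cycle and -2.50 over the skeletal muscle genes. In FGF21 AAV against tumour control fat limma called 3 of 12 adipocyte markers higher (Lep, Fabp4 and Lpl) and 1 of 15 cell cycle genes lower (Hmmr), where 0.564% of all genes were called. By DESeq2, where 6.89% were, 11 of 12 adipocyte and 3 of 10 mammary markers were called higher, and 2 of 12 muscle markers and 4 of 22 further B cell genes lower. In efruxifermin against tumour control fat limma called Lpl and the macrophage gene Cd163 higher, where 0.764% of all genes were called. The adipocyte markers summed to 40004, 25366, 18956, 27378 and 49306 RPM under FGF21 AAV, against 6038, 2035, 13247, 7625 and 14765 RPM in tumour controls. The markers of highest mean level were Cfd, Lpl and Fabp4 for adipocytes, Myh4, Acta1 and Tnnc2 for muscle, Lyz2, C1qa and C1qb for macrophages, and Siglech, Zbtb46 and Fscn1 for dendritic cells. For the cell cycle they were Top2a, Pcna and Birc5, and for mammary epithelium Krt18, Krt19 and Csn3. Since RPM are shares of a library, more adipocyte RNA and less lymphocyte RNA cannot be told apart in a single sum. Skeletal muscle markers summed to 28.0, 34.3, 525, 2349.5 and 7.31 RPM under FGF21 AAV, against 1462, 25.3, 82.8, 103390.0 and 547 RPM in tumour controls. Dendritic cell markers summed to 286, 133, 128, 86.9 and 90.8 RPM under FGF21 AAV, against 517, 631, 396, 38.4 and 509 RPM in tumour controls. The part of these cell types in the lymphocyte differences was not tested.

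The genes most like the members in pattern over the 19 libraries were looked up next. Among 12133 other genes of mean RPM 5 or more, the highest Pearson r of log2(RPM + 1) with the mean of the B cell members was that of H2-Eb2 (0.99). Gm42870, Fcmr, Limd2, Irf8, Siglecg, Ccr6 and H2-Ob were among those that followed with r down to 0.98. For the T and NK members it was Ccl22 (0.98), a chemokine of dendritic cells, followed by Themis, Tespa1, Arhgef1, Ms4a4b, Arhgap15, Limd2, Glycam1, Skap1 and Gm11346 with r down to 0.97. The median r over all candidates was 0.167 with the B cell members and 0.196 with the T and NK members. These r describe libraries that share a treatment group and differ in composition.

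Within the set, 17 of 19 B cell members had r over 0.9 with the mean of the other B cell members, the exceptions being Jchain at 0.66 and Ebf3. Of the T and NK members 21 of 28 had r over 0.9 with the rest of their branch. Gzma, Gzmb, Klrb1c and Ncr1 were below 0.5, and Prf1 stood at 0.76. With the other branch, the B cell members had a median r of 0.915 and the T and NK members one of 0.874, so most members of both branches were high and low in the same libraries.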

How the data were processed

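Libraries were made with a 3' end kit (Lexogen QuantSeq, forward) from whole inguinal fat, per the labels' protocols. The authors deposited 1 table of RPM per gene, and per the submitters' processing notes they used FastQC, cutadapt, HISAT2, HTSeq and the GRCm39 build. Versions and the strand setting are not given in the sources used here, so antisense reads may be included. RPM steps gave whole reads for 100% of values in 19 of 19 libraries (tolerance 0.05 reads, up to 1000 reads). Of gene names on several rows, the row of highest mean was kept.

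Values of log2(RPM + 1) were tested by limma (version 3.58.1, under R 4.3.3) with a trend, over the 4 groups in 1 fit, for genes with RPM of at least 1 in at least 4 libraries, with Benjamini-Hochberg adjustment. On the recovered reads, edgeR 4.0.16 called 8, 46, 0, 1, 0 and 1 genes and DESeq2 1.42.0 called 488, 400, 19, 28, 17 and 39 genes. These counts stand for tumour controls as the base first (FGF21 AAV, then efruxifermin), next for efruxifermin with FGF21 AAV as the base, and last for healthy fat as the base (FGF21 AAV, efruxifermin, tumour control). The scripts were tested on simulated data. Sums and shares used pandas 2.3.3 and scipy 1.17.1, and plots matplotlib 3.10.9.

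The members, the other gene lists and the tests were chosen with earlier results of these data known. Named were 15 members given in every library, the 5 members of smallest p in each comparison, the 3 genes of highest mean and any called gene of each other list, and the 10 genes most like each branch, some of which are not reported here. Values by library of Jchain, Klrb1c, Cd5, Lat, Cd8b1 and of genes outside the set, and the pairs of genes set in ratio, were chosen after values were seen. Each library is 1 mouse. No 2 libraries agreed within sampling noise (smallest chi-square per gene 8.83 over 171 pairs). Alternatives changed the pseudocount, filter, scaling, tool, groups in the fit, replicate block and libraries included. Ccl21a and Fdcsp were not analysed here.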

Additional observations from a re-analysis of the deposited data

Results flagged for a closer look

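Within groups of 4 or 5 libraries, 20 of 72 groups of values had a library far from the others by Dixon's criterion at 95%. The nominal chance rate of about 1 in 20 is for separate groups of normally spread values and cannot be applied to this count. Most of these genes rise and fall together, and their sums were counted beside them. A gene read in only 1 library of a group, as Gzma and Gzmb below, is always marked. All values are on the log2 scale, of RPM + 1 for single genes and of summed RPM for the gene groups.

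Tumour control 4 lay below the other tumour controls in most of the groups so marked. Cd79a, Ms4a1, Cd3e, Cd4, Cd8a, Trac, Ccr7 and Nkg7 were at 0 there. Ighm stood at 5.31 there, Cr2 at 2.49 and Ptprc at 3.39. The B cell sum stood at 6.46 there, against 11.96 to 13.61 in the other tumour controls, and the T and NK sum at 3.95, against 10.71 to 11.66.

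FGF21 AAV 1 lay above the other FGF21 AAV libraries in Ccr7, at 5.95 against 0 to 0.40, and in the T and NK sum, at 10.47 against 5.53 to 6.77. FGF21 AAV 3 had a log2 ratio of T and NK to B cell reads of -3.08, against -1.60 to -1.18 in the others.

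Gzma was read in 1 efruxifermin library, number 4, at 2.26, and in 1 tumour control library, number 2, at 1.53. Gzmb was read in 1 healthy library, number 2, at 0.80. Ebf3 was highest in healthy 4, at 5.43 against 4.62 to 4.75 in the other healthy libraries.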

How the results depend on the processing

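With 0 members called by limma in every comparison of all libraries, no call of a member could be reversed. Of the values recomputed for single members, 591 kept their direction and side of the threshold. Another 16 passed it, 15 without tumour control 4 (alone or with efruxifermin 3) and 1 by DESeq2. Of the summary values, 453 stayed within their limits and 74 moved, and the causes were not tested. Counts of calls had to stay within a fixed factor of the main count, and medians within the SD between libraries. That SD was wide: the mean log2(RPM + 1) of the B cell members had one of 2.30 in FGF21 AAV and 2.86 in tumour control fat. A median could thus change sign and still count as within its limit, so the 453 do not show that the medians were stable. Genes called in FGF21 AAV against tumour control (96) numbered 55 with a pseudocount of 5, 14 with no filter, 8 by edgeR, 488 by DESeq2, 150 with a replicate block and 1767 without tumour control 4 and efruxifermin 3, a choice made after seeing the data; members called were 1 by DESeq2 and 40 without both libraries. In efruxifermin against tumour control (130 genes) there were 57 with no filter, 46 by edgeR, 400 by DESeq2, 4 with only the 2 groups, and 774 genes and 3 members without both libraries. In efruxifermin against FGF21 AAV (0) there were 19 by DESeq2. In FGF21 AAV against healthy (2) there were 6 with no filter, 4 with TMM, 1 by edgeR, 28 by DESeq2, 5 with only the 2 groups, 1 with the block and 9 without both libraries. In efruxifermin against healthy (0) there were 4, 17 and 8 with no filter, by DESeq2 and without both libraries. In tumour control against healthy (8) there were 13 with a pseudocount of 5, 14 with no filter, 3 with TMM, 3 with median-of-ratios factors, 1 by edgeR, 39 by DESeq2, 2 with only the 2 groups, 40 with the block and 227 without both libraries.

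With each replicate left out in turn, genes called ranged from 7 to 1018 in FGF21 AAV against tumour control (members 0 to 30), from 5 to 637 in efruxifermin against tumour control (members 0 to 4), from 0 to 2 in efruxifermin against FGF21 AAV, from 1 to 8 in FGF21 AAV against healthy, from 0 to 1 in efruxifermin against healthy and from 1 to 64 in tumour control against healthy. Medians of 3 comparisons changed sign: T and NK, efruxifermin against FGF21 AAV (-0.31 to 1.08); B cell, FGF21 AAV against healthy (-1.74 to 0.08); B cell, efruxifermin against healthy (-0.65 to 1.08). The median log2 ratio of T and NK to B cell reads without antibody genes was -1.21 for efruxifermin and -0.39 for tumour controls, against -2.54 and -1.73 with them. Without Ebf3 as well, a choice made after seeing the data, it was 0.82 for FGF21 AAV, -0.58 for efruxifermin, -0.23 for tumour control and 1.03 for healthy fat.

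The replicate numbers share no stated source: 8 of 27 same-numbered pairs correlated above 0.1 (median r -0.020), and 24 of 108 other pairs (median r -0.0084). With the replicate block 0 members were called in all 6 comparisons. Against healthy fat other scalings moved the median of all genes by 0.0932 to 0.221 log2 units, small beside the members' medians except the B cell median of 0.06 for efruxifermin. At 2011067 to 3693864 reads, values under about 1 RPM rest on 3 reads or fewer, which limits the cytotoxic and NK genes most.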
